A study of Homo sapiens with 3 samples.

Results

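The genes described here encode the proteins of the cytosolic ribosome. They were taken by name: protein-coding genes off the Y chromosome whose symbol is RPL or RPS with a number and, at most, an A, X or L suffix, plus RPLP0, RPLP1, RPLP2 and RPSA. The rule found 84 of the 58735 genes in the tables, of which 52 belong to the large subunit, with its P stalk, and 32 to the small subunit. Of these, 7 are paralogs with an L in their name, namely RPL3L, RPL7L1, RPL10L, RPL22L1, RPL26L1, RPL39L and RPS27L, and the other 77 are called the core genes below. They were measured by RNA sequencing in 3 established human prostate cancer cell lines, PC3, DU145 and LNCAP. The design of the series places PC3 and DU145 in the castration-resistant class and LNCAP in the androgen-dependent class. All lines grew at 37 °C and 5% CO2 with 10% fetal bovine serum and received no other agent per the labels. Several media are named without the line each was used for, so medium and line cannot be told apart.

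Each line was sequenced as 1 library, so no difference between 2 lines could be tested against replicate spread, and the intervals given here cover counting error only. Library totals were 15319045 counts in PC3, 15878546 in DU145 and 15393103 in LNCAP. The marker check fitted the labels: KLK3, which encodes prostate-specific antigen, had 0, 0 and 2271 CPM (read counts scaled to library size with TMM factors) in PC3, DU145 and LNCAP. The α-catenin gene CTNNA1, which PC3 is known to lack, had 2.16, 506.3 and 362.3 CPM. Of 10 markers of fibroblasts, immune cells and endothelium, COL1A1 was the highest, with 31.9, 9.45 and 33.1 CPM. PECAM1 had 20.1, 0.766 and 0 CPM and VWF had 0.0654, 0 and 9.21 CPM, while CD3E and LUM were at 0 in every library and PTPRC was at 0.458 CPM or below.

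The ribosome joins a small subunit, which decodes the mRNA, to a large subunit, which forms the peptide bond and holds the exit tunnel for the growing chain. Most of the proteins are present as a single copy per ribosome, and most of their mRNAs begin with a terminal oligopyrimidine tract, a C followed by a run of pyrimidines, through which LARP1 and mTORC1 control their translation. Some genes have paralogs whose products can take the partner's place in the ribosome, and several are known for expression restricted to testis or striated muscle.

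Ribosomal protein mRNA made up a smaller share of the PC3 and DU145 libraries than of the LNCAP library. The 84 genes held 489861 of the counts in PC3, 542761 in DU145 and 677139 in LNCAP. These were 3.20% (exact binomial 95% interval 3.19 to 3.21), 3.42% (3.41 to 3.43) and 4.40% (4.39 to 4.41) of each library. After TMM scaling the summed count in PC3 was 0.740 times that in LNCAP (0.737 to 0.743), and in DU145 it was 0.800 times that in LNCAP (0.797 to 0.803). The difference was larger for the large subunit than for the small one. Large subunit core genes were at 0.712 times the LNCAP sum in PC3 and 0.764 times in DU145, whereas small subunit core genes were at 0.805 and 0.875 times. The ratio of large to small subunit counts was thus 1.64 in PC3, 1.62 in DU145 and 1.85 in LNCAP. All of these are shares of a library, so less ribosomal protein mRNA per cell, fewer cells of a type within a culture and more of other RNAs cannot be told apart.

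Mitochondrial transcripts and pseudogenes moved alongside these shares. Genes of the mitochondrial genome took 4.35% of the counts in PC3, 5.60% in DU145 and 7.97% in LNCAP. With mitochondrial counts removed from the library totals and no TMM scaling, the summed ratio was 0.699 for PC3 over LNCAP and 0.757 for DU145 over LNCAP. These differ from 0.740 and 0.800 in the scaling as well as in the mitochondrial counts. The shares of the totals without mitochondrial counts were 3.34%, 3.62% and 4.78% in PC3, DU145 and LNCAP. Annotated pseudogenes of the ribosomal protein genes held 19293, 23462 and 28695 counts in PC3, DU145 and LNCAP, which is 3.94%, 4.32% and 4.24% of the counts on the genes themselves. With those counts added, the shares were 3.32%, 3.57% and 4.58%. The proteins of the mitochondrial ribosome, encoded by 78 nuclear genes, took 0.428%, 0.366% and 0.443% of the libraries.

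Levels per length spread widely among the ribosomal protein genes. Among the 77 core genes the median was 96.8 FPKM in PC3, 110.9 FPKM in DU145 and 136.2 FPKM in LNCAP. The lowest core gene was RPS10 in each line, with 0.606, 1.41 and 0.959 FPKM. The highest was RPL8 in PC3 and DU145, with 730.2 and 618.2 FPKM, and RPS12 in LNCAP, with 803.2 FPKM. These ranks depend on the listed gene length that FPKM divides by. Per base of the annotated principal transcript, the highest was RPS24 in PC3 and RPS2 in DU145 and LNCAP, with RPS10 still the lowest. By mean FPKM over the libraries the top 5 were RPL8 (612.9 FPKM), RPS12 (587.4), RPL13A (529.4), RPS2 (526.3) and RPL41 (511.7). The order was much alike in the 3 lines, with a Spearman rho of FPKM over the 77 genes of 0.89 for PC3 with LNCAP, 0.92 for DU145 with LNCAP and 0.88 for PC3 with DU145. These points share the listed gene lengths and the counting method of the libraries.

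The levels of several genes are uncertain because other gene models overlap them. Among the core genes with the lowest mean FPKM were RPS10 (0.990 FPKM), RPL36A (2.12), RPL17 (7.30) and RPS15A (10.2), and each is overlapped on its own strand by exons of another gene model. For RPS10 the overlapping model, RPS10-NUDT3, covers 39.4% of its exonic bases, and for RPL17 the model RPL17-C18orf32 covers 24.8%. Overlap was not limited to low genes: of all 84, 35 are overlapped in this way, 6 of them over at least 10% of their exonic bases. RPL8, RPL13A and RPS2, among the highest 5, are overlapped over 1.34%, 3.63% and 14.5%. How reads shared by overlapping models or by near-identical copies were assigned is not given in the sources used here, so the level of these genes is uncertain.

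**Figure D1:**
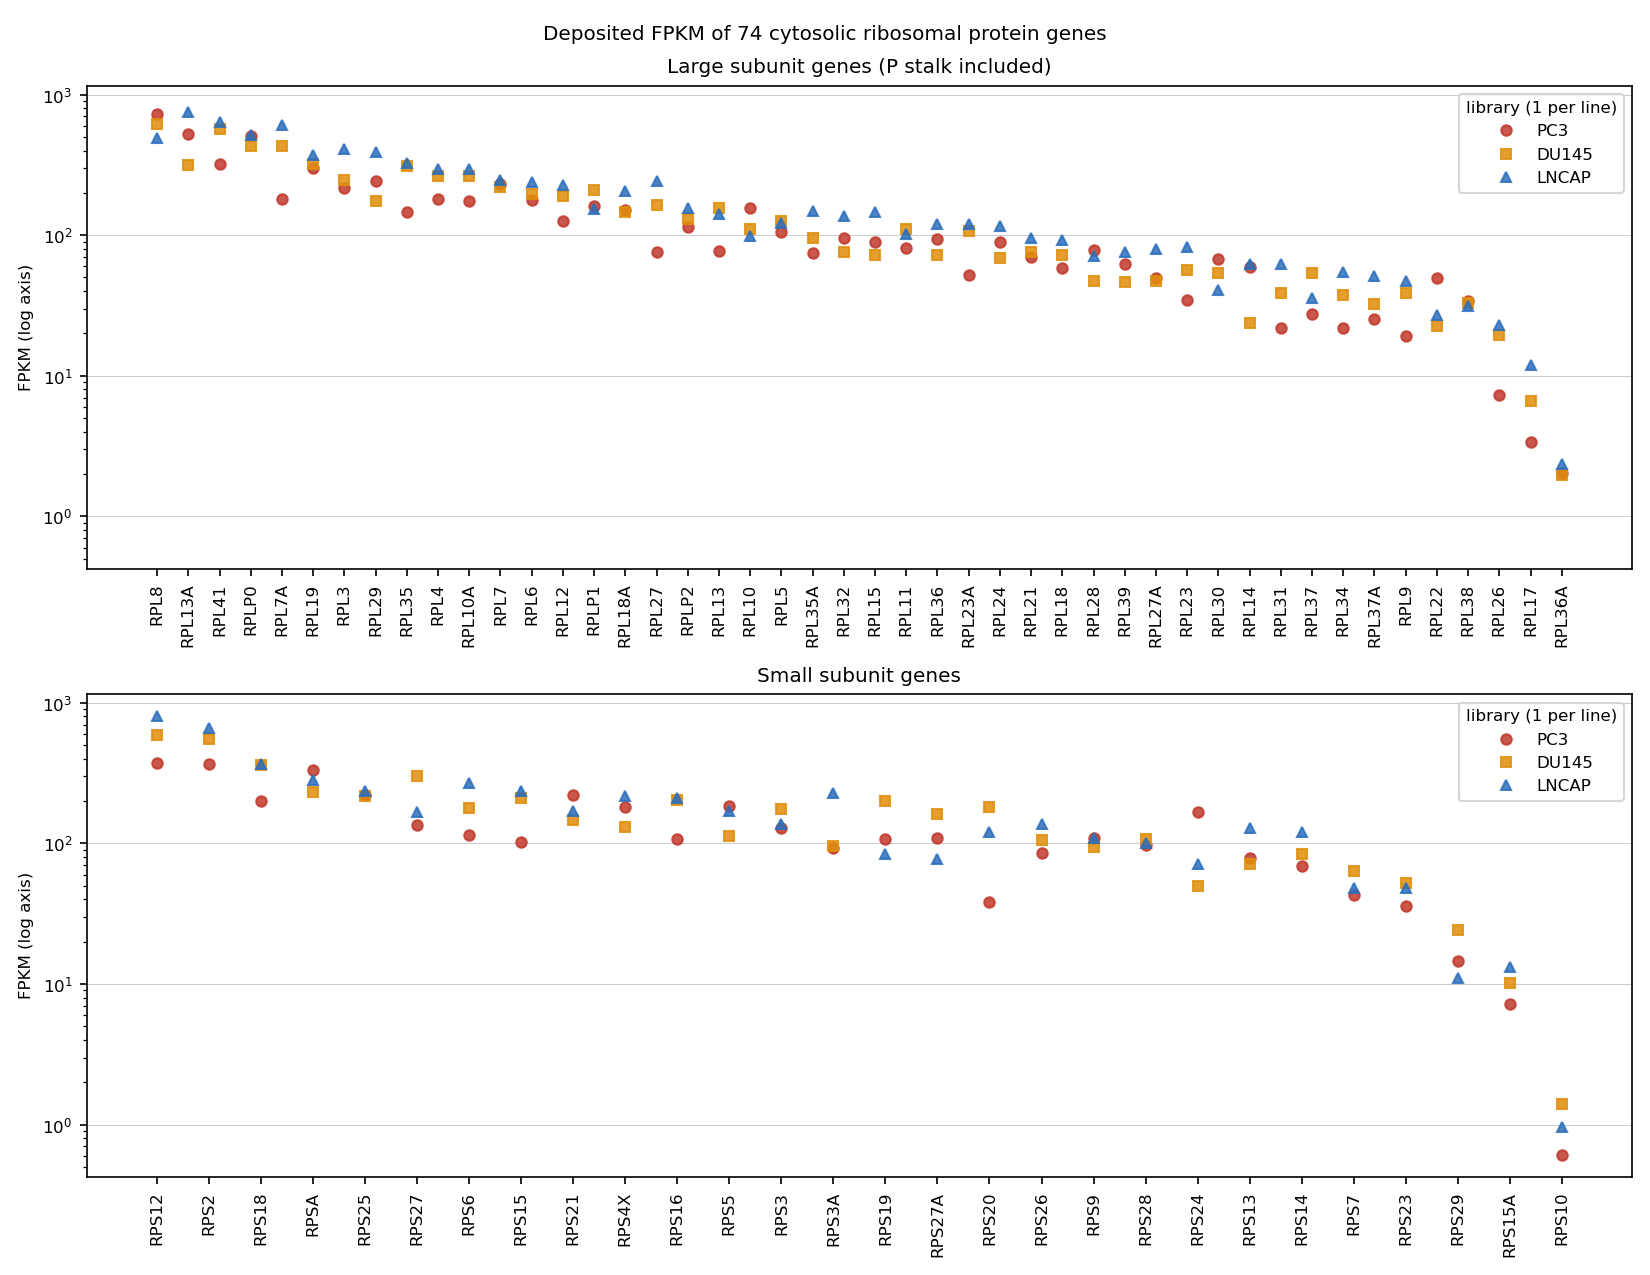
Deposited FPKM (log axis) of 46 large subunit and 28 small subunit core genes in PC3, DU145 and LNCAP, 1 point per gene and library. The points run from under 1 FPKM for RPS10 in PC3 and LNCAP to 803.2 FPKM for RPS12 in LNCAP, and the core median is lowest in PC3 and highest in LNCAP.

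In PC3 against LNCAP most ribosomal protein genes were lower. Of the 84 genes, 83 reached 1 CPM in at least 1 library, and RPL3L, the striated muscle paralog of RPL3, did not, with 5, 13 and 8 counts in PC3, DU145 and LNCAP. The call required a log2 ratio of 1 or more in size together with an exact counting interval that left out a ratio of 1. By this 2-fold rule 2 of the 83 genes were higher in PC3 and 22 were lower, while among all 18025 genes tested 46.2% were called, 22.6% higher and 23.6% lower. The share lower was 26.5% of the ribosomal protein genes and the share higher 2.41%. Their median log2 ratio was -0.53, with 66 of 83 below 0, against a median of -0.01 over all tested genes. For the 2381 other tested genes at a mean of 100 CPM or more, the median was 0.09, with 20.7% higher and 14.9% lower. At 4-fold, 1 ribosomal protein gene was higher in PC3, RPL39L, and 2 were lower, RPL22L1 and RPL10L, against 26.3% of all tested genes, 13% higher and 13.3% lower.

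The log2 ratios of the 77 core genes had an SD of 0.66, against 1.37 for the 83 genes with the paralogs and 2.81 for all tested genes. Other gene lists tied to translation had SDs of a like size. For 19 translation factors and other mRNAs with a pyrimidine tract the SD was 0.56. For 30 assembly factors it was 0.53, and for 78 mitochondrial ribosomal proteins 0.83. Among the core genes called, 19 were 2.02- to 3.56-fold lower in PC3 and 1, RPS24, was higher. Other protein-coding genes with a listed length under 1000 bases, 152 of which were tested, also had a negative median of -0.36 in PC3 against LNCAP and of -0.30 in DU145 against LNCAP. Only 2 ribosomal protein genes have a listed length that short, but 41 have a principal transcript that short. The part of transcript length in the shift was not tested.

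**Figure D2:**
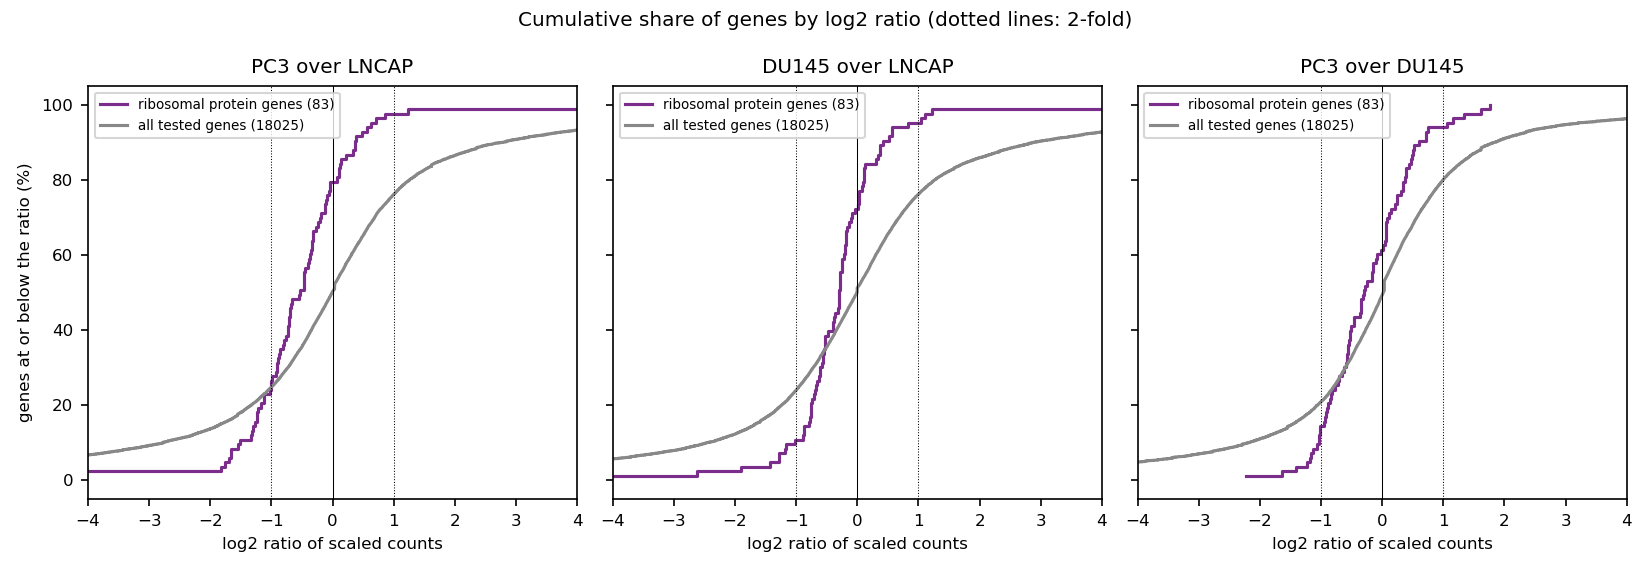
Cumulative share of genes against the log2 ratio of normalised counts for PC3 over LNCAP, DU145 over LNCAP and PC3 over DU145, for the 83 ribosomal protein genes and all 18025 genes tested. The ribosomal protein curve is steeper and crosses its midpoint further left, with medians of -0.53, -0.30 and -0.30, against -0.01, 0.00 and 0.02 for all tested genes.

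In the large subunit 13 of 46 core genes were lower in PC3 than in LNCAP and 0 higher. This is 28.3%, beside 19.4% of the small subunit core genes and 23.6% of all tested genes. RPL7A had 410.3 CPM in PC3, 959.4 CPM in DU145 and 1387 CPM in LNCAP, which is 3.38-fold lower in PC3 than in LNCAP (3.29 to 3.48). RPL27 had 153.7, 335.1 and 499.1 CPM in PC3, DU145 and LNCAP and was 3.25-fold lower in PC3 (3.10 to 3.40). For these genes PC3 was the lowest library, LNCAP the highest and DU145 between them. RPL17 had 8.44, 16.2 and 30.0 CPM and was 3.56-fold lower in PC3 than in LNCAP (2.92 to 4.35), on a gene whose exons overlap another model. RPL9 had 96.9, 196.2 and 242.8 CPM, 2.51-fold lower, but its annotated pseudogenes held more counts than the gene, 2546 in PC3, 5243 in DU145 and 6141 in LNCAP against 1481, 3074 and 3795. With them added RPL9 was at 263.5, 530.8 and 635.6 CPM, and its log2 ratio was -1.27 in place of -1.32. RPL34 had 75.04, 128.1 and 189.2 CPM, 2.52-fold lower. RPL37A, RPL35A and RPL41, which encodes the shortest ribosomal protein, lay at the edge of the call, 2.03-, 2.02- and 2.02-fold lower in PC3.

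RPL26, RPL31, RPL35 and RPL23A, like RPL17, encode proteins at the mouth of the exit tunnel, and were picked after their values were seen. RPL26 had 18.5 CPM in PC3, 49.1 CPM in DU145 and 58.5 CPM in LNCAP, 3.17-fold lower in PC3 (2.77 to 3.63). RPL31 had 126.9, 226.6 and 370.3 CPM, 2.92-fold lower (2.77 to 3.07). RPL35 and RPL23A were 2.25-fold and 2.34-fold lower. RPL19 and RPL39 encode proteins of the same site and were not called, RPL19 with 531, 562 and 667 CPM and RPL39 with 134.4, 98.9 and 166.8 CPM.

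In the small subunit 6 core genes were lower in PC3 than in LNCAP and RPS24 stood out on the other side. RPS24, mutated in some patients with Diamond-Blackfan anaemia, had 1334 CPM in PC3, 394.2 CPM in DU145 and 570.1 CPM in LNCAP. It was 2.34-fold higher in PC3 than in LNCAP (2.28 to 2.40). RPS20 was the opposite case, with 116.3 CPM in PC3, 542.0 CPM in DU145 and 367.6 CPM in LNCAP, 3.16-fold lower in PC3 than in LNCAP (2.996 to 3.33). RPS3A, near the site where mRNA leaves the small subunit, had 220.5, 224.2 and 545.7 CPM and was 2.47-fold lower in PC3. RPS6, the substrate of S6 kinase, had 314.5, 483.0 and 738.0 CPM and was 2.35-fold lower (2.27 to 2.43). RPS15 and RPS12 were 2.36-fold and 2.18-fold lower in PC3.

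The start sites of RPS24 and RPS3A show the pyrimidine tract that most of these genes share. A tract was counted where the listed start was a C followed by at least 4 bases that were each C or T, read on the gene's strand in the RefSeq promoter table (GRCh38.p14). The table holds 67 of the 84 genes, and 47 of them (70.1%) carried the tract at a listed start, against 1404 of 27305 genes in the table (5.14%). Each sequence here gives 40 bases before the start and 20 from it, and capitals mark the start and its pyrimidine run. RPS24 lies at chr10:78033823-78033882 on the plus strand and RPS3A at chr4:151099588-151099647 on the plus strand.
RPS24: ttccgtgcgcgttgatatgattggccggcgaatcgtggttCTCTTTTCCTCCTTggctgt
RPS3A: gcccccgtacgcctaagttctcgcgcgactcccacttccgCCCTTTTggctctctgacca
The gene that was higher in PC3 and the gene that was lower thus both begin with a tract. Among the core genes in the table, the median log2 ratio of PC3 over LNCAP was -0.47 for the 46 with the tract and -0.71 for the 16 without it. For DU145 over LNCAP the medians were -0.30 with the tract and -0.31 without it.

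In DU145 against LNCAP the core genes called in the large subunit were all lower, 4 of 46, whereas in the small subunit 3 were higher and 2 lower of 31. With the paralogs, 4 of 83 genes were higher in DU145 and 9 were lower, against 46% of all tested genes called, 22.9% higher and 23.1% lower. The shares among the ribosomal protein genes were 4.82% and 10.8%. Their median log2 ratio was -0.30, with 60 of 83 below 0, against 0.00 for all tested genes. At 4-fold, RPL39L was higher in DU145, and RPL22L1 and RPL10L were lower, against 25.8% of all tested genes, 13.7% higher and 12.1% lower. The LNCAP library is the same as in the comparison of PC3 with LNCAP, so the results of both comparisons rest on it.

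The large subunit core genes lower in DU145 were RPL14, RPL13A, RPL29 and RPL15. RPL14 had 517.1 CPM in PC3, 203.3 CPM in DU145 and 549.8 CPM in LNCAP, 2.71-fold lower in DU145 than in LNCAP (2.60 to 2.82). It was thus low in DU145 and nearly level between PC3 and LNCAP. RPL13A, also known as a regulator of inflammatory mRNA translation, had 1241, 750.3 and 1814 CPM, 2.42-fold lower in DU145 (2.37 to 2.47). RPL29 had 505.8, 361.8 and 818.5 CPM, 2.26-fold lower, and RPL15 had 647.3, 523.7 and 1067 CPM, 2.04-fold lower. In the small subunit RPS3A was 2.43-fold lower in DU145 than in LNCAP, beside 2.47-fold lower in PC3 than in LNCAP.

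The core genes higher in DU145 than in LNCAP all belong to the small subunit. RPS19, the gene most often mutated in Diamond-Blackfan anaemia, had 409.7 CPM in PC3, 759.9 CPM in DU145 and 325.4 CPM in LNCAP, 2.33-fold higher in DU145 than in LNCAP (2.26 to 2.41). RPS29 had 144.8, 239.7 and 111.5 CPM, 2.15-fold higher (2.03 to 2.28). RPS27A, made as a fusion to ubiquitin, had 343.7, 507.9 and 247.6 CPM, 2.05-fold higher (1.97 to 2.13). In each of the 3 genes PC3 lay between DU145 and LNCAP.

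PC3 and DU145 also differed from each other. Between them 4 of 83 genes were higher in PC3 and 12 lower, or 4.82% and 14.5%, against 37.8% of all tested genes called, 18.5% higher and 19.3% lower. The median log2 ratio was -0.30, against 0.02 for all tested genes. RPS20, with the values given above, was 4.66-fold lower in PC3 than in DU145 (4.43 to 4.91), and was the sole gene of the 83 past 4-fold here, where 19.1% of all tested genes were, 8.54% higher and 10.6% lower. RPL26 was 2.66-fold lower, RPL7A 2.34-fold lower and RPS10 2.31-fold lower (1.38 to 3.99), the last on 22 counts in PC3 and 52 in DU145. The pseudogenes of RPS10 held 15 counts in PC3, 93 in DU145 and 188 in LNCAP. RPS10 alone had 1.44, 3.32 and 2.30 CPM in PC3, DU145 and LNCAP, and 2.42, 9.25 and 14.3 CPM with them added. DU145 was thus above LNCAP on the gene alone and below LNCAP with the pseudogenes. RPS27 had 140.7 CPM in PC3, 313.4 CPM in DU145 and 176.5 CPM in LNCAP, 2.23-fold lower in PC3 than in DU145, and RPL13 had 475.9, 957.7 and 889.5 CPM, 2.01-fold lower. The other genes lower in PC3 than in DU145 were RPL22L1, RPL27, RPL35, RPS15, RPL23A and RPL9.

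Higher in PC3 than in DU145 were RPS24 at 3.38-fold (3.29 to 3.48), RPL14 at 2.54-fold and RPL22 at 2.23-fold. Over the 3 comparisons 32 of the 77 core genes were called at least in 1, and 45 in none. The matching share of all tested genes over the 3 comparisons together was not computed. Singly, 26% of the core genes were called for PC3 against LNCAP, 11.7% for DU145 against LNCAP and 19.5% for PC3 against DU145. Among all tested genes these shares were 46.2%, 46% and 37.8%.

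**Figure D3:**
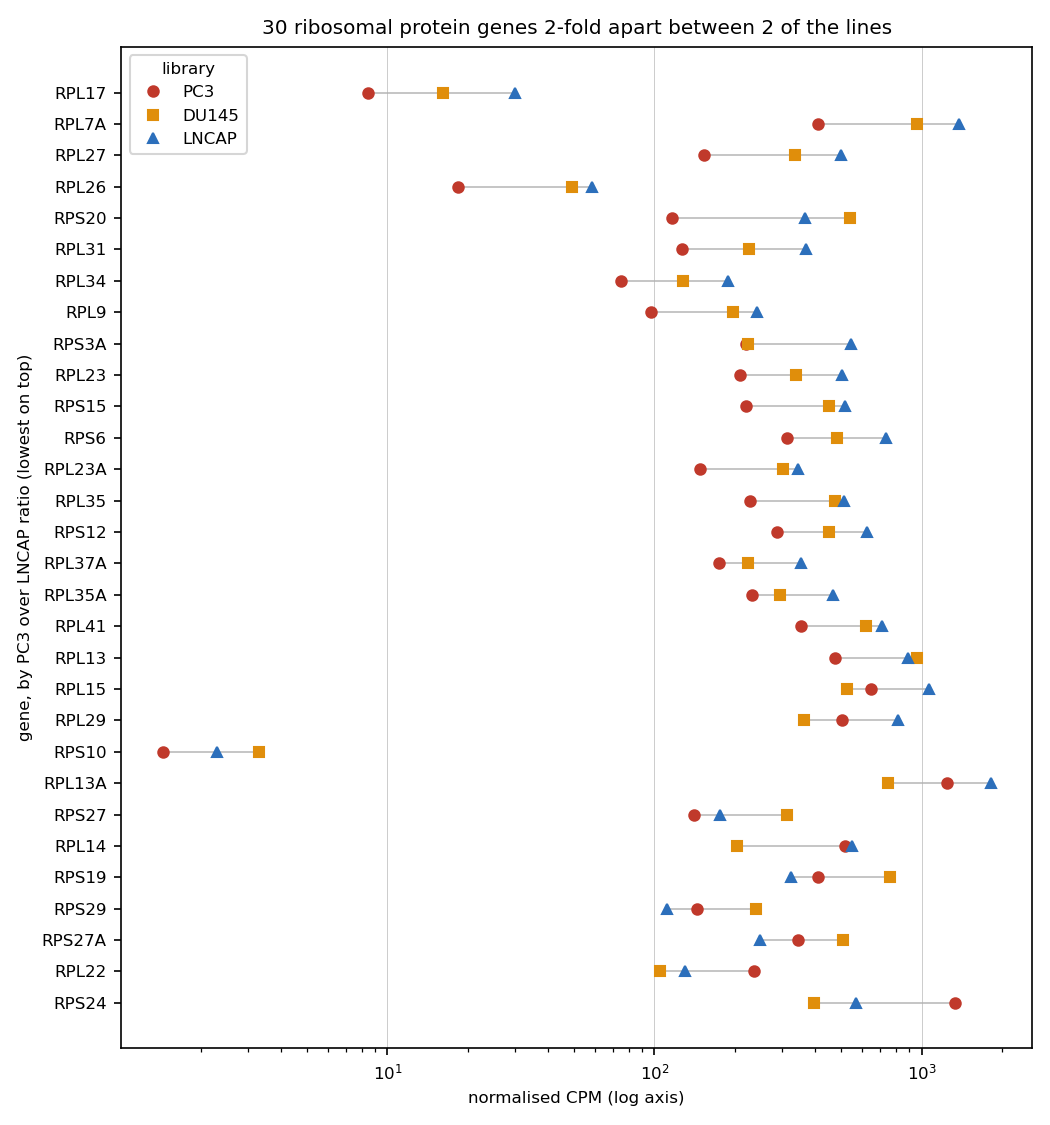
Normalised CPM (log axis) in PC3, DU145 and LNCAP, 1 point per library, for 30 of the 32 core genes called 2-fold apart in at least 1 comparison, ordered by the ratio of PC3 over LNCAP with the lowest on top. RPL17, at 8.44, 16.2 and 30.0 CPM, stands at the top, and RPS24, at 1334, 394.2 and 570.1 CPM, at the bottom.

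The level of a core gene was most often highest in LNCAP, in 50 of 77 genes, and most often lowest in PC3, in 44 of 77. PC3 was highest for 11 genes, DU145 was highest for 16 and lowest for 25, and LNCAP was lowest for 8. RPL8 was among the genes highest in PC3, with 1588 CPM in PC3, 1336 CPM in DU145 and 1078 CPM in LNCAP. RPS12 was among those highest in LNCAP, with 287.3, 450.9 and 627.5 CPM.

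Most of the genes picked for a known role, in the P stalk or outside the ribosome, were within 2-fold in every comparison. The exceptions were RPL23, given below, and RPS6 and RPS19, also picked by role and given above. Of all tested genes, 46.2% were called for PC3 against LNCAP, 46% for DU145 against LNCAP and 37.8% for PC3 against DU145. RPLP0, the base of the P stalk that recruits elongation factors, had 2031 CPM in PC3, 1715 CPM in DU145 and 2095 CPM in LNCAP. Its partners on the stalk, RPLP1 and RPLP2, had 534.1, 681.7 and 509.9 CPM and 226.0, 253.8 and 312.2 CPM. None of the 3 was called in any comparison. RPL5 and RPL11, which with 5S rRNA bind MDM2, were not called either. RPL5 had 391.9, 465.5 and 460.1 CPM and RPL11 had 215.9, 295.3 and 275.4 CPM. RPL23, another protein that binds MDM2, had 208.4 CPM in PC3, 338.6 CPM in DU145 and 501.8 CPM in LNCAP, and was 2.41-fold lower in PC3 than in LNCAP. RPS3, also a DNA repair protein, RPSA, the laminin receptor precursor, and the X-linked RPS4X were within 2-fold in every comparison. RPS3 had 760.5, 1045 and 827.4 CPM, RPSA had 1311, 914.9 and 1126 CPM, and RPS4X had 546.9, 392.9 and 661.0 CPM in PC3, DU145 and LNCAP.

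The largest ratios against LNCAP were in the paralogs. RPL22L1 (chr3:170864875-170870483, minus strand, GRCh38) had 225 counts in PC3, 719 in DU145 and 4418 in LNCAP, or 14.7, 45.9 and 282.6 CPM. It was 19.2-fold lower in PC3 than in LNCAP (16.8 to 22.1), 6.16-fold lower in DU145 than in LNCAP (5.69 to 6.67) and 3.12-fold lower in PC3 than in DU145 (2.68 to 3.64). RPL22, its partner, had the reverse order of PC3 and LNCAP, with 235.2 CPM in PC3, 105.2 CPM in DU145 and 129.9 CPM in LNCAP. Of the counts on the pair, RPL22L1 held 5.89% in PC3 (exact binomial interval 5.16 to 6.68), 30.4% in DU145 (28.5 to 32.3) and 68.5% in LNCAP (67.4 to 69.6). Per length, RPL22L1 was at 6.28 FPKM against 49.9 FPKM for RPL22 in PC3, 19.7 against 22.5 in DU145 and 119 against 27.2 in LNCAP. The more abundant gene of the pair was therefore RPL22 in PC3 and DU145 and RPL22L1 in LNCAP.

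RPL39L (chr3:187120948-187180908, minus strand, GRCh38), a paralog known for expression in testis and in some cancers, was detected in PC3 and DU145 and had no count in LNCAP. Its counts were 228 in PC3, 337 in DU145 and 0 in LNCAP, where 0 counts allow up to 0.192 CPM with 3 counts taken as the limit. PC3 thus had at least a 77.7-fold higher level than LNCAP, and DU145 at least a 112-fold higher one. Of the pair with RPL39, RPL39L held 9.99% of counts in PC3 (8.79 to 11.3), 17.9% in DU145 (16.2 to 19.7) and 0% in LNCAP (up to 0.115% by the same limit). RPL39 itself, with 134.4, 98.9 and 166.8 CPM, stayed the more abundant gene per length in every line, at 62.3, 46.1 and 76.5 FPKM against 14.0, 20.3 and 0 FPKM for RPL39L.

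RPS27L (chr15:63125872-63158021, minus strand, GRCh38), was lower in both castration-resistant lines. It had 32.3 CPM in PC3, 24.5 CPM in DU145 and 91.9 CPM in LNCAP, 2.84-fold lower in PC3 than in LNCAP (2.56 to 3.15) and 3.75-fold lower in DU145 than in LNCAP (3.35 to 4.21). Its share of the counts on the pair with RPS27 was 18.7% in PC3 (17.2 to 20.2), 7.25% in DU145 (6.57 to 7.99) and 34.2% in LNCAP (32.8 to 35.7). RPS27 was far above it per length, at 135, 302 and 167 FPKM against 3.52, 2.68 and 9.88 FPKM. The listed length is 9127 bases for RPS27L and 1035 for RPS27, so the gap per length is wider than the gap in counts.

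RPL26L1 shows a pair share that moved with the partner. RPL26L1 was level at 34.4 CPM in PC3, 31.7 CPM in DU145 and 31.2 CPM in LNCAP, while RPL26 had 18.5, 49.1 and 58.5 CPM. RPL26L1 thus held 65.1% of the counts on the pair in PC3 (61.7 to 68.4), 39.2% in DU145 (36.5 to 42.0) and 34.8% in LNCAP (32.3 to 37.4). Per length, RPL26L1 was the more abundant gene in every line. It had 29.3, 27.2 and 26.3 FPKM in PC3, DU145 and LNCAP, against 7.29, 19.5 and 22.8 FPKM for RPL26. Another gene model on the same strand covers 14.3% of the exonic bases of RPL26, so its level is uncertain. RPL7L1 and RPL7 kept a similar balance in the 3 lines, with RPL7L1 at 257.0, 327.9 and 323.2 CPM and RPL7 at 674.6, 645.0 and 728.5 CPM. RPL7L1 held 27.6%, 33.7% and 30.7% of the counts on that pair.

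The other paralogs were close to the detection limit. RPL10L, an intronless copy of X-linked RPL10 known from male germ cells, had 1 count in PC3, 0 in DU145 and 39 in LNCAP. It was 38.1-fold lower in PC3 than in LNCAP, with a wide counting interval of 6.45 to 1544, and at least 13.0-fold lower in DU145 than in LNCAP. RPL10, with 756.1, 533.7 and 488.3 CPM, held nearly all counts of that pair, RPL10L having 0.00865%, 0% and 0.508% of them. RPL3, with 1046, 1175 and 1996 CPM in PC3, DU145 and LNCAP, likewise dwarfed RPL3L, which held from 0.0256% in LNCAP to 0.0706% in DU145.

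**Figure D4:**
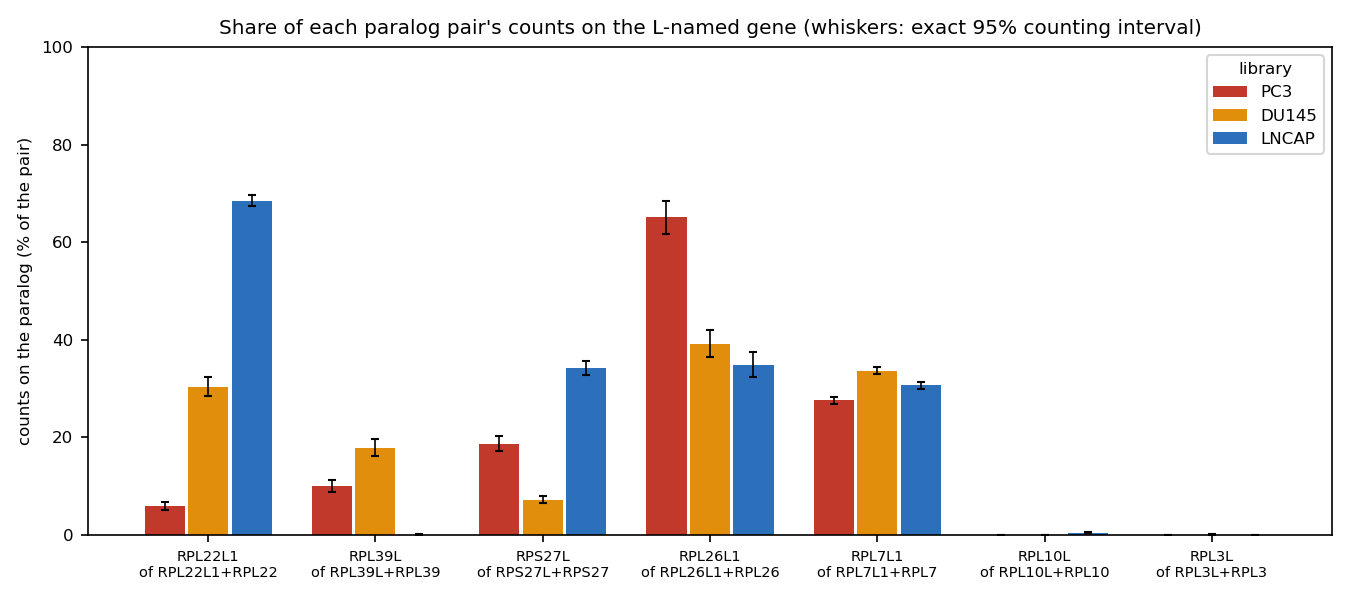
Percent of the counts on each pair of paralog and partner that fell on the paralog, in PC3, DU145 and LNCAP, with exact 95% binomial intervals as whiskers. RPL22L1 runs from 5.89% in PC3 to 68.5% in LNCAP, RPL39L from 17.9% in DU145 to 0% in LNCAP, and RPL7L1 from 27.6% in PC3 to 33.7% in DU145.

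The start sites of the pairs differ in the pyrimidine tract, and they are shown because the paralogs carry the largest differences. Of the 5 paralogs in the promoter table, RPL22L1 alone had a tract, against 46 of 62 core genes (74.2%). RPL39L and RPL3L were not matched in the table. The windows are built as above, with capitals for the start and its pyrimidine run, at chr3:170870176-170870235 (minus strand) for RPL22L1, chr1:6199576-6199635 (minus) for RPL22, chrX:119791611-119791670 (minus) for RPL39, chr15:63157458-63157517 (minus) for RPS27L, chr1:153990722-153990781 (plus) for RPS27, chr5:172958689-172958748 (plus) for RPL26L1 and chr17:8383174-8383233 (minus) for RPL26.
RPL22L1: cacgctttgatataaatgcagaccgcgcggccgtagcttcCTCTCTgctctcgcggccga
RPL22: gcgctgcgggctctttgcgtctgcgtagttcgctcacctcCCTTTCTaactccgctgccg
RPL39: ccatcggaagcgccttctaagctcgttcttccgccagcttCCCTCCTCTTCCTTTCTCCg
RPS27L: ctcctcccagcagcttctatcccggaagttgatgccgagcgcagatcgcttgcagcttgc
RPS27: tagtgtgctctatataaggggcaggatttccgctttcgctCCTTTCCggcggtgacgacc
RPL26L1: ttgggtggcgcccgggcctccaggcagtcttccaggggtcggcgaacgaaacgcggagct
RPL26: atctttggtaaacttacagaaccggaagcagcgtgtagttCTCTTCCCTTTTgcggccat
RPL22L1 and RPL22 both start with a tract, whereas RPS27L and RPL26L1 have none at the listed start and their partners do. A missing match says only that the listed start is not followed by these bases.

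The question of the series, castration-resistant against androgen-dependent, allows a single test in which the difference between PC3 and DU145 serves as the spread, with 1 residual degree of freedom. With edgeR's quasi-likelihood test and Benjamini-Hochberg adjustment over all tested genes, 0 of the 83 ribosomal protein genes were called, against 0% of the 18025 genes. At an unadjusted p under 0.05 there were 1746 genes over the whole table, of which 3 were ribosomal protein genes. RPL39L, higher in both PC3 and DU145, had an edgeR adjusted p of 0.289. RPL22L1 and RPS27L, lower in both, had edgeR adjusted p of 0.412 and 0.495. DESeq2's Wald test on the same libraries called 1306 genes, among them RPL39L as higher and RPL22L1 as lower in the castration-resistant lines, and limma-voom called 0. The median edgeR log2 fold change of the 83 genes was -0.44, against 0.10 for all tested genes.

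The ribosomal protein genes lie on 21 chromosomes. No test of a difference between chromosomes was made, and the medians below rest on few genes each. On chromosome 17 the 6 genes RPL19, RPL23, RPL23A, RPL26, RPL27 and RPL38 had a median log2 ratio of PC3 over LNCAP of -1.25, with 4 called lower, while the median of 852 other coding genes there was -0.03. On chromosome 9 the 4 genes RPL7A, RPL12, RPL35 and RPS6 had a median of -1.20, with 3 called lower, and 566 other coding genes there had a median of -0.55. On chromosome 3 the 9 genes had a median for DU145 over LNCAP of -0.88, with 4 called lower and 1 higher, beside -0.27 for 774 other coding genes. On the other chromosomes with 4 or more genes, the medians for PC3 over LNCAP ran from -0.77 to 0.22. The lowest was on chromosome 6, with 5 genes, beside 0.09 for other coding genes there. Chromosomes 15, 2 and 12 had -0.75, -0.61 and -0.59, beside -0.02, 0.22 and 0.18 for other coding genes. The highest was on chromosome 8, with 4 genes, beside 0.24. The 12 genes on chromosome 19 had -0.22, beside 0.04, and the 4 on the X chromosome had -0.24, beside 0.24. Over all tested genes, 23.6% were called lower and 22.6% higher in PC3 than in LNCAP. For DU145 against LNCAP, 23.1% were called lower and 22.9% higher. Copy number was not measured here and its part in these values was not tested.

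**Figure D5:**
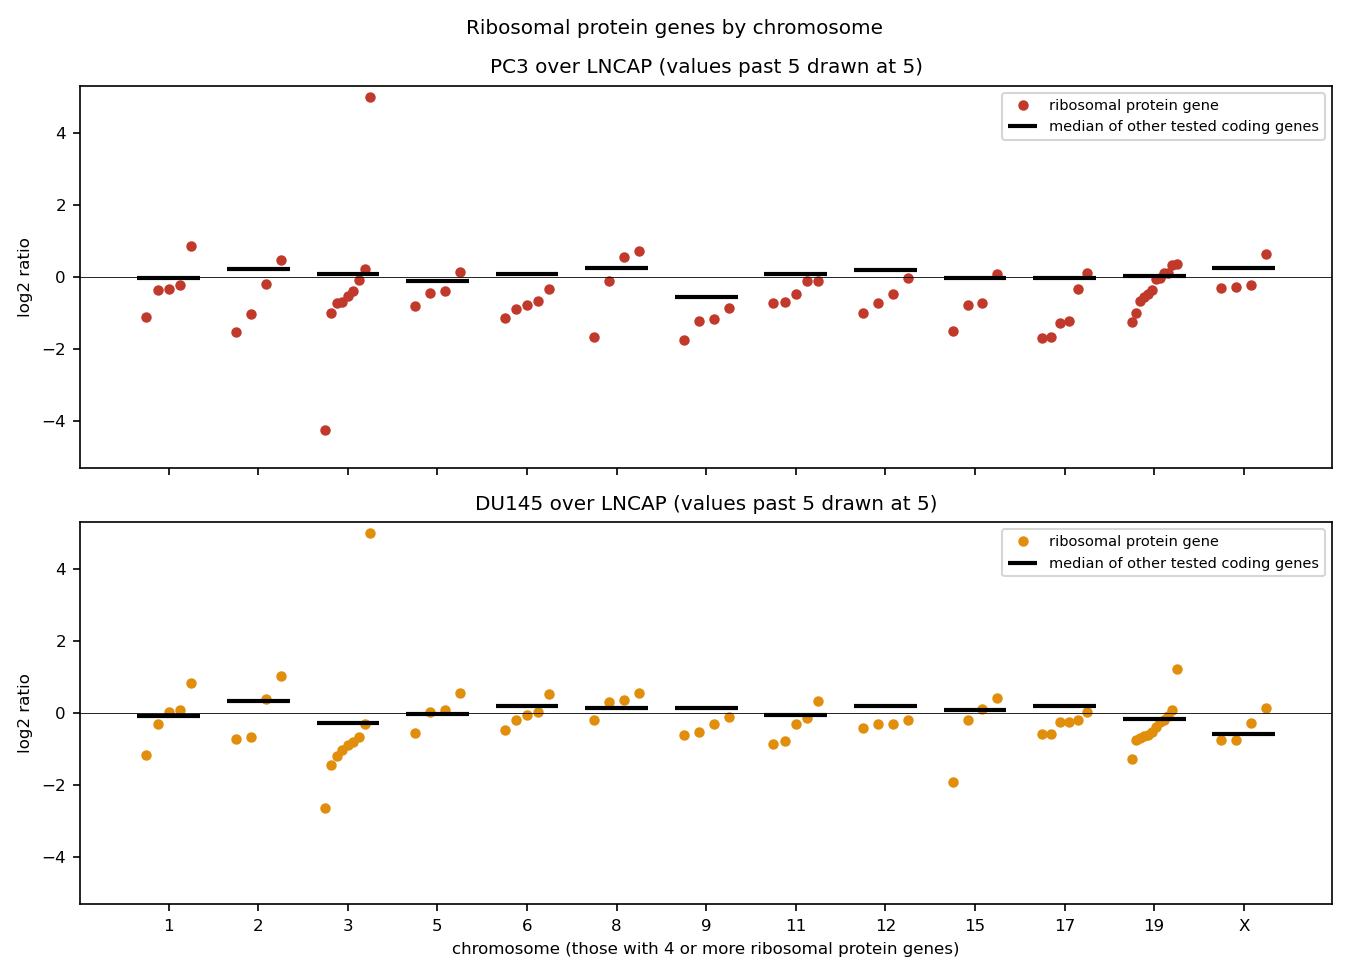
Log2 ratios of single ribosomal protein genes, on the chromosomes with 4 or more of them, for PC3 over LNCAP and DU145 over LNCAP, with the median of the other tested coding genes of each chromosome as a bar. Values past 5 in size are drawn at 5. On chromosome 17 the genes for PC3 over LNCAP have a median of -1.25, beside -0.03 for the other coding genes.

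Beyond the ribosomal proteins, EEF2 was the translation factor furthest apart between PC3 and LNCAP, in a list chosen by function. Of 19 tested translation factors and other mRNAs with a pyrimidine tract, 0 were higher and 1 (5.26%) lower in PC3 than in LNCAP. Among all tested genes 22.6% were higher and 23.6% lower. The median log2 ratio of the 19 was -0.33. The lower gene was EEF2, which moves the ribosome along the mRNA, with 1558 CPM in PC3, 2730 CPM in DU145 and 4591 CPM in LNCAP. In DU145 against LNCAP none of the 19 was called, against 46% of all tested genes, and the median was -0.20. EEF1G, also on the list, had 0 counts in every library and was not tested. Because the counting method is not given, 0 counts do not show that this gene is silent. Whether its reads were lost in counting was not tested. Between PC3 and DU145 PABPC1, the poly(A)-binding protein, was higher in PC3, with 2151, 966.6 and 1617 CPM in PC3, DU145 and LNCAP.

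Most ribosome assembly factors were within 2-fold between PC3 and LNCAP. Of 30 tested, 4 were higher (13.3%, against 22.6% of all tested genes) and 0 lower in PC3, with a median log2 ratio of -0.04. UBTF, a transcription factor of RNA polymerase I, had 245.3 CPM in PC3, 177.7 CPM in DU145 and 107.9 CPM in LNCAP, and MRTO4, whose yeast counterpart prepares the site of the P stalk, had 94.5, 73.7 and 42.5 CPM. EBNA1BP2 and GAR1 were the others. In DU145 against LNCAP 1 assembly factor, NOB1, was higher, and RRP9 and GNL3 were lower (10% called, against 46% of all tested genes). The 78 mitochondrial ribosomal protein genes had medians of -0.05 for PC3 over LNCAP and -0.19 for DU145 over LNCAP. Of them, 6 were higher and 7 lower in PC3 (16.7% called, against 46.2% of all tested genes). In DU145 7 were higher and 8 lower (19.2%, against 46%). Of the fusion and companion genes that the naming rule leaves out, RPL36AL, a copy of RPL36A, had 122.9 CPM in PC3, 267.3 CPM in DU145 and 101.5 CPM in LNCAP. FAU and RACK1, whose products also sit in the ribosome, were within 2-fold in every comparison.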

How the data were processed

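The authors deposited raw read counts per gene and FPKM values per gene for each of the 3 libraries, 1 per cell line. A deposited FPKM was its count over the gene length in the table and over a constant of the library, so both hold the same reads. The tools in the submitters' processing notes, with no role, are TopHat2 2.0.9, Bowtie2 2.0.6, Cuffdiff 2.1.1 and Cufflinks 2.1.1. No source used here gives the counting program, strand setting or genome build. The coordinates of 58735 genes, all in the tables, matched GENCODE release 29, which is on GRCh38. Without a known strand setting, antisense and overlapping genes, and copies of near-identical sequence, may share reads.

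Counts were scaled with TMM (edgeR 4.0.16, R 4.3.3; factors 0.998 for PC3, 0.987 for DU145 and 1.016 for LNCAP), and a gene entered the comparisons if any library had it at 1 CPM (18025 genes). Ratios carry exact conditional binomial (Clopper-Pearson) 95% intervals (Python 3.11.15, scipy 1.17.1), and log2 ratios have 0.5 counts added. Against a count of 0 a fold is a bound at 3 counts in that library. The class comparison used edgeR's quasi-likelihood test at an adjusted p of 0.05, with DESeq2 1.42.0 and limma 3.58.1 as alternatives. Scripts were tested on simulated data.

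The members and gene lists were chosen with earlier results of these data known. Named were genes called in any comparison (at most 12 per comparison and direction), the paralogs and their partners, the 5 highest and 5 lowest by mean FPKM, genes named by role, and up to 4 genes of each other list. Some genes of the exit tunnel, and the remaining called genes, were added after their values were seen. Of the listed symbols, GNB2L1, AROS, PICT1, SYO1, SNHG29 and SNHG32 were not found under these names. Some genes are not reported here by name.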

Additional observations from a re-analysis of the deposited data

How the results depend on the processing

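A 4-fold call left 1 ribosomal protein gene higher and 2 lower in PC3 than in LNCAP, 1 higher and 2 lower in DU145 than in LNCAP, and 0 higher and 1 lower in PC3 than in DU145. Without the genes overlapped by another model on the same strand, 48 were left. Of these 48, 14 were lower in PC3 than in LNCAP, beside 22 of all 83 and 23.6% of all tested genes. Their median log2 ratio was -0.42. Between PC3 and DU145, 2 of the 48 were higher and 6 lower in PC3, beside 4 and 12 of the 83. Over all tested genes the shares were 18.5% higher and 19.3% lower. Without the paralogs 1 gene was higher in PC3 than in LNCAP. DESeq2 called 1 gene higher and 1 lower in the castration-resistant lines. The share of counts in the ribosomal protein genes was 3.34%, 3.62% and 4.78% in PC3, DU145 and LNCAP without mitochondrial counts, and 3.32%, 3.57% and 4.58% with pseudogene counts added. The cause of these changes beyond the smaller gene sets was not tested. Under other scalings, filters, added counts, FPKM and gene sets, the median log2 ratio ran from -0.55 to -0.42 for PC3 over LNCAP, from -0.34 to -0.25 for DU145 over LNCAP and from -0.35 to -0.25 for PC3 over DU145. Of 434 single-gene values recomputed under other scalings, added counts, FPKM and pseudogene counts, 15 moved past their counting interval, and 0 of those called changed direction. RPL26L1 and RPL7L1, not called, had 0.02 for DU145 over LNCAP and -0.02 with library totals. With pseudogene counts added to each gene, RPL23A was at -0.89 for PC3 over DU145, no longer 2-fold. In the class comparison the median log2 fold change was -0.30 without PC3 replicate 1 and -0.53 without DU145 replicate 1, as values with no test. Leaving out genes overlapped over at least 10% of their exonic bases, adding pseudogene counts to each gene, and levels by principal transcript, were chosen after seeing the data. No paired analysis was possible because each line has 1 library. Low genes such as RPL10L, RPL3L and RPS10 are limited by their counts.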

Other observations

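Small nucleolar RNA host genes, whose spliced transcripts also begin with a pyrimidine tract, were mostly within 2-fold between PC3 and LNCAP. Of 10 tested, 0 were called 2-fold higher and 1 lower in PC3 than in LNCAP, with a median log2 ratio of 0.15. This is 10% called, against 46.2% of all tested genes. The lower one was GAS5, with 56.5 CPM in PC3, 156.4 CPM in DU145 and 150.5 CPM in LNCAP. In DU145 against LNCAP 2 were higher and 1 lower (30% called, against 46% of all tested genes), with a median of 0.21. SNHG5 had 15.2, 101.2 and 10.5 CPM in PC3, DU145 and LNCAP.

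Genes of mTORC1 signalling and translation control, 13 of which were tested, had medians of -0.29 for PC3 over LNCAP and -0.39 for DU145 over LNCAP. RPTOR, the raptor subunit of mTORC1, was called higher in PC3 than in LNCAP (7.69% called, against 46.2% of all tested genes). In DU145 RHEB, the activator of mTORC1, was called higher than in LNCAP, and TSC2 and RPS6KB2 were called lower. This is 23.1% called, against 46% of all tested genes. In the list of genes that handle free ribosomal proteins, 0 of 11 were higher and 3 (27.3%) lower in PC3 than in LNCAP. Among all tested genes 22.6% were higher and 23.6% lower. The 3 included CDKN1A, with 5.04, 55.1 and 442.6 CPM, and MDM2, with 64.5, 73.7 and 234.5 CPM in PC3, DU145 and LNCAP.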
